A study of Mus musculus with 21 samples.

Results

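The cytoplasmic ribosomal protein genes are described here across mouse embryonic stem (ES) cells labelled as Dot1l knockout (KO) and their controls. Members were the genes whose symbol is Rpl, Rps or Rplp with a number and, at most, one of the endings a, x, l, l1 or al, together with Rpsa. The rule found 87 of the 53796 genes listed in each expression table: 33 of the small subunit, 51 of the large subunit and the 3 stalk proteins. Rows for ribosomal protein pseudogenes (-ps) do not match the rule, and neither do Fau, Rps3a1 and Rack1, whose products are also found in the ribosome. RNA was sequenced from cells of the V6.5 strain in 5 groups of 3 libraries. Dot1l KO cells in LIF, and their WT controls that carried a control guide RNA, were grown in serum medium with 100 U/ml of the self-renewal cytokine LIF, on inactivated mouse embryonic fibroblasts. Dot1l KO cells under Wnt3a and activin A, and their controls, were plated on gelatin in N2B27 medium with Y-27632 and then given Wnt3a at 50 ng/ml with activin A at 10 ng/ml, usually for 24 h, which leads ES cells towards the primitive streak. The fifth group was otherwise untreated ES cells, also with LIF at 100 U/ml. Their genotype was Cdk1as/as, with an analog-sensitive form of the kinase Cdk1. Whether the KO line is 1 clone or many, and whether replicates were cultured separately, is not in the labels, so p-values measure library-to-library spread alone, which could be technical.

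Ribosomal proteins are built into the small (40S) and large (60S) subunits alongside ribosomal RNA, and a growing cell makes them in near-equal numbers. Their mRNAs are among the most abundant of a cell, begin with a run of pyrimidines (the 5′ terminal oligopyrimidine tract, TOP) through which mTOR and Larp1 set their translation and stability, and are read from short genes with strong promoters. A few members have paralogs that replace them in some tissues, such as testis, heart or muscle. Dot1l is the methyltransferase that places methyl groups on histone H3 (the H3K79 mark) along transcribed genes.

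The deposited values are FPKM, the authors' fragments scaled by transcript length and library size, so levels can be set side by side between genes, and a member's value depends on what else is in its library. Depth is unknown, and a rough relative depth read from the lowest values was 0.616 to 1.30 in LIF and 0.511 to 0.929 under Wnt3a and activin A (KO replicate 1 of each table = 1). Dot1l itself was at 11.2, 8.90 and 10.8 FPKM in KO libraries in LIF, against 21.2, 20.6 and 24.6 FPKM in controls, and at 13.5, 12.9 and 14.7 against 18.5, 17.7 and 19.1 FPKM under Wnt3a and activin A (log2 fold changes -1.04 and -0.40, limma adjusted p = 0.0178 and 0.00462). Dot1l RNA was thus lower but not absent in KO libraries, and its protein was not measured in them. The short RNA gene Mir6236 held 28.6% of all summed FPKM in one KO library in LIF (replicate 3) and 2.72% to 8.31% in each other KO or control library. By limma at an adjusted p under 0.05, 7 of 8 ES cell markers fell in the KO in each condition. All 8 had a negative log2 fold change in LIF, and 7 had one in the other condition. Over all genes tested, 3.45% fell and 0.958% rose in LIF, against 29.5% and 19.6% in the other condition. Of 12 fibroblast markers 7 passed the filter in LIF, and all 7 had a positive log2 fold change. Of these, 2 (Acta2 and Timp3) rose past that threshold. Summed over the list, the fibroblast markers were at 75.5 to 83.0 FPKM in KO and 40.5 to 61.4 FPKM in control libraries in LIF, with Lum, Dcn and Fap at or near 0. Under Wnt3a and activin A, on gelatin, they were at 125.6 to 134.5 FPKM in KO and 291.8 to 323.0 FPKM in control libraries. Tagln alone averaged 78.4 FPKM in KO and 270 FPKM in control libraries there, most of each sum. Of 7 tested there, Tagln fell past the threshold, and Col1a1, Col1a2, Col3a1 and Timp3 rose past it. Summed, the primitive streak markers were at 1298 to 1360 FPKM in KO and 949.9 to 1049 FPKM in control libraries of that condition. T alone averaged 692 FPKM in KO and 554 FPKM in control libraries. Of 8 tested, 7 rose past the threshold and Fgf8 fell past it, beside 19.6% and 29.5% of all genes. Mitochondrially encoded genes held 0.358% to 0.550% of summed FPKM in KO and 0.285% to 0.351% in control libraries in LIF, and 0.808% to 0.915% in KO and 0.456% to 0.477% in control libraries under Wnt3a and activin A. Of 13 listed, mt-Nd3, mt-Nd4l, mt-Co2, mt-Co3, mt-Atp6 and mt-Atp8 were at 0 in every KO and control library, so these shares rest on the other 7. Of those 7, all tested, 5 rose past the threshold in LIF and 3 in the other condition, beside 0.958% and 19.6% of all genes. The short RNA Rmrp averaged 2.90 ± 2.52 FPKM in KO and 20.7 ± 3.45 FPKM in control libraries in LIF (limma adjusted p = 0.0708), and 2.65 ± 4.59 and 30.3 ± 9.09 FPKM under Wnt3a and activin A (limma adjusted p = 0.0127; SD, n = 3 each). The part of such cells and RNAs in the results below was not tested.

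Ribosomal protein genes held a large share of the summed FPKM of every library, a measure scaled by transcript length and not a share of reads. Their values summed to 15.2%, 14.4% and 11.5% of all FPKM in KO libraries in LIF, against 15.9%, 17.2% and 16.6% in controls, and the groups did not overlap. With Mir6236 and the mitochondrially encoded genes left out of the total, the shares were 16.7%, 15.5% and 16.1% in KO and 17.3%, 18.2% and 18.02% in control libraries, still without overlap. Under Wnt3a and activin A they summed to 17.0%, 17.5% and 19.0% in KO libraries, against 24.8%, 23.0% and 24.3% in controls. ES cell libraries had 18.7%, 18.1% and 19.6%. Within a library the median member stood 105.0 to 106.1 times above the median gene (of genes averaging 1 FPKM or more) in KO and 112.2 to 117.6 times in control libraries in LIF, 126.1 to 129.4 times in KO and 232.2 to 242.2 times in control libraries under Wnt3a and activin A, and 117.1 to 121.0 times in ES cells. By both measures controls given Wnt3a and activin A stood apart from the other 4 groups. The KO libraries of that condition overlapped ES cells in their share of all FPKM, but lay above them, without overlap, in the ratio of medians. Each table was scaled on its own, so these shares and ratios are set side by side between tables without a test.

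**Figure D1:**
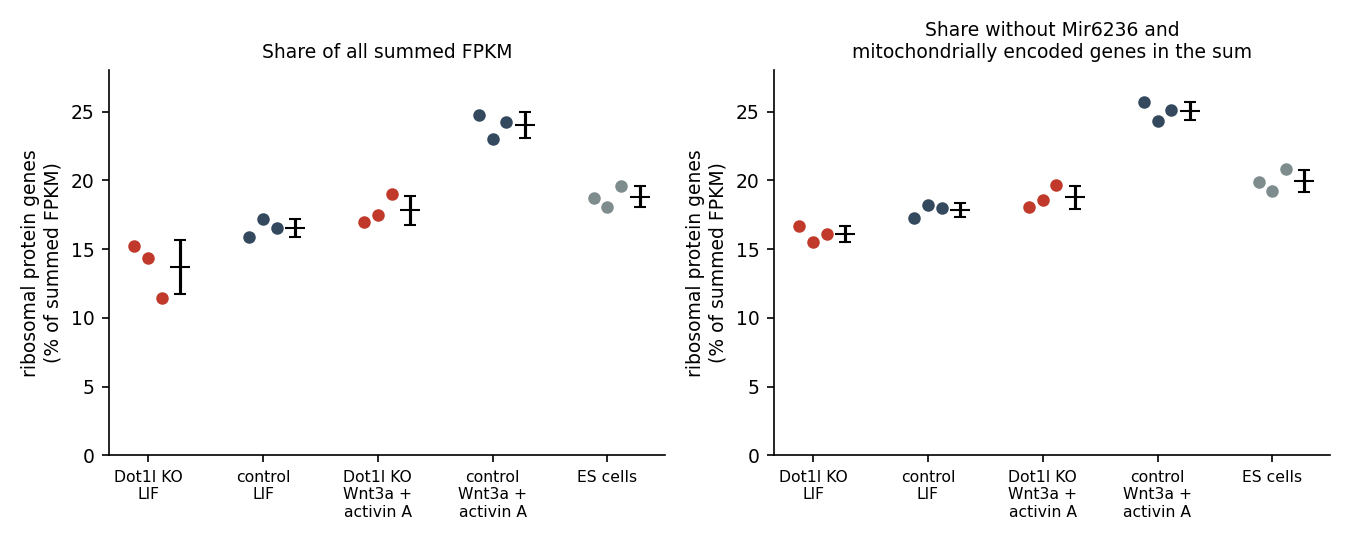
Share of summed FPKM held by the 87 ribosomal protein genes in each library, as points by group, with the mean and SD of 3 libraries as a bar beside them, over all genes (left) and without Mir6236 and mitochondrially encoded genes (right). The KO libraries lie below their controls in both panels, 16.97% to 18.99% against 22.97% to 24.77% under Wnt3a and activin A.

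Levels of single members spread widely. In ES cells Rpl13a was highest, at 9109, 6611 and 10414 FPKM, and the stalk protein gene Rplp1 (mean 3621), Rps12 (3327) and Rps15 (3297 FPKM) were also among the 5 highest. Rpl13a was highest in all 5 groups and held 8.71% of the member sum in KO and 8.99% in control libraries in LIF, 7.71% in KO and 7.57% in control libraries under Wnt3a and activin A, and 6.80% in ES cells. Its locus (chr7:45125557-45136432, GRCm38, as the deposited table gives it) is shared with 7 other listed genes, and the values of genes at a shared locus can take reads from each other. In all, 49 of the 87 members share their locus with another listed gene. In ES cells Rps12 and Rps15 are not separated: Rps12 had 3011, 3830 and 3139 FPKM, and Rps15 3134, 3478 and 3279 FPKM. The split between subunits hardly moved, with small subunit genes at 39.7% of the member sum in KO and 40.3% in control libraries in LIF, 41.6% in KO and 41.8% in control libraries under Wnt3a and activin A, and 42.2% in ES cells.

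At the low end were gene copies. Rps12l1 was listed at 0 in all 15 libraries, Rpl6l reached at most 0.339 FPKM and Rpl32l at most 1.17 FPKM. Rpl3l, the paralog of Rpl3 used in heart and skeletal muscle, lay between 1.30 and 2.14 FPKM in the LIF and ES cell libraries and at or below 0.273 FPKM under Wnt3a and activin A. Rpl13 was listed at 0 in the 3 ES cell libraries and at 955 to 1272 FPKM in the 6 LIF libraries. Its locus there spans chr8:119910359-124345724 with 209 other listed genes, and a zero of this kind can be a failed estimate. The test took genes averaging 1 FPKM or more across a table's 6 libraries, and this kept 84 members in LIF. It kept 81 under Wnt3a and activin A. The 3 left out in LIF were Rps12l1, Rpl6l and Rpl32l, and those left out under Wnt3a and activin A were the same 3 with Rpl10l, Rpl39l and Rpl3l.

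Transcription start windows were matched for 64 of the 87 members (RefSeq, GRCm38.p6, 250 bases before to 50 after the start). A TOP-like run was here at least 5 pyrimidines, counted onward from a C within 5 bases of the annotated start. It was held by 30 of the 64 members (46.9%), against 21.2% of all 27025 genes with a window and 23.9% of the 9493 of them tested in LIF. Runs are shown for members of both subunits and the stalk, and for members whose window holds none, with the run in capitals and the start at the 16th of 30 bases.
Rps27 (chr3:90213634-90213663, minus strand): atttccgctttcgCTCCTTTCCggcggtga
Rps10 (chr17:27635230-27635259, minus strand): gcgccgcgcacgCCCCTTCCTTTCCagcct
Rplp2 (chr7:141447636-141447665, plus strand): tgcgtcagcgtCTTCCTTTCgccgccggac
Rpl28 (chr7:4792950-4792979, plus strand): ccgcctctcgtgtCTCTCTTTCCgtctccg
Rpl35 (chr2:39005117-39005146, minus strand): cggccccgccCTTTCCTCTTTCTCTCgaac
Rpl22l1 (chr3:28805493-28805522, plus strand): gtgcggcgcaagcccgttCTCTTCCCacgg
Rpl22 (chr4:152325711-152325740, plus strand): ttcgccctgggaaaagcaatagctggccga
Rpl41 (chr10:128549154-128549183, minus strand): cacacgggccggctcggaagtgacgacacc
Rps19 (chr7:24884577-24884606, plus strand): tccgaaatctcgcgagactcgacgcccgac
The runs shown lie across the start, except that of Rpl22l1, which lies after it. As counted, they differ in length, from 8 bases in Rpl22l1 to 16 in Rpl35. Pyrimidines before the first C counted, such as the cc in Rpl35, are not in capitals and not in these lengths. An annotated start can lie some bases from the one the cells use, and these letters say nothing about that. The ETS family core CCGGAAG, on either strand, was in the windows of 39.1% of members, 9.93% of all genes and 20.7% of tested genes. The YY1-type motif AAGATGGC was in 9.38% of members, against 3.19% and 5.51%. The GC box GGGCGG was in 60.9% of members, against 38.2% and 71.2%. TATAAA was in 12.5% of members, against 15.7% and 8.23%, and the E-box CACGTG in 9.38%, against 8.09% and 12.2%. None of these motifs contains another, and all were searched on both strands. Members with and without a TOP-like run had about the same fold changes: the medians on the log2 scale were -0.19 and -0.19 in LIF (29 and 34 tested members) and -0.91 and -0.92 under Wnt3a and activin A (29 and 31 tested members).

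In LIF, ribosomal protein genes were slightly lower in Dot1l KO cells. Of the 84 tested, 80 had a negative log2 fold change (KO over control, on log2(FPKM + 1)), with a median of -0.20 against -0.07 over all 13153 genes tested, or a median difference in mean FPKM of -12.8%. By limma with Benjamini-Hochberg adjustment over the whole table, 15 of 84 (17.9%) fell at an adjusted p under 0.05, against 3.45% of all genes, and 1 rose, against 0.958%, which makes 16 members (19.0%) against 4.41% in either direction. All 3 KO libraries lay below all 3 controls in 66 of 84 members (78.6%), against 22.5% of all genes, and above them in 2 members (2.38%), against 8.66%. The single calls are fragile. With any 1 of the 6 libraries left out, at most 1 member fell, and none rose: 0 to 1 of 84 members passed. At an unadjusted p under 0.05 by limma, 51 to 61 were then lower and 2 higher. Beside these, 2515 to 3080 of all genes were under it in either direction. The median kept to between -0.21 and -0.17, but was -0.06 with quantile normalization, against which all genes were at -0.02. With libraries set to equal sums it was -0.12 and all genes were at 0.0002. The members then lay 0.12 below all genes, against 0.13 below them as deposited.

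Small subunit genes carried 12 of the 15 calls. Their median was -0.24 over 32 tested, against -0.19 over 49 large subunit genes, of which 3 fell and 1 rose. Rps29, a small zinc-binding protein of the 40S head, had 2290, 2062 and 2387 FPKM in KO libraries and 2831, 3017 and 3241 FPKM in controls. On the log2 scale it changed by -0.43 (SE 0.07, limma adjusted p = 0.0364). Rps28 had 1026, 966 and 1079 FPKM in KO and 1300, 1320 and 1408 FPKM in control libraries, a change of -0.39 (SE 0.06, limma adjusted p = 0.0268). In both genes every KO library was below every control. Rps12, known in Drosophila for a part in cell competition, had 2325, 2201 and 2224 FPKM in KO and 2839, 2732 and 2742 FPKM in control libraries (-0.30, SE 0.04, limma adjusted p = 0.0224). Other small subunit genes past the threshold, named after their values were seen, were Rps27a, made as a fusion with ubiquitin (-0.36), Rps13 (-0.35), Rps20 (-0.34), Rps25 (-0.31), Rps21 (-0.27), Rps14 (-0.25), Rpsa (-0.24) and Rps18 (-0.24).

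Among large subunit genes Rpl36a, Rpl13a and Rpl9 fell. Rpl36a had 932, 850 and 892 FPKM in KO and 1125, 1114 and 1116 FPKM in control libraries (log2 fold change -0.33, SE 0.04, limma adjusted p = 0.0245). Rpl13a, whose protein in human cells also leaves the ribosome to silence inflammatory mRNAs, had 11159, 10514 and 10685 FPKM in KO and 12477, 13485 and 12944 FPKM in control libraries (-0.27, SE 0.04, limma adjusted p = 0.0320). Rpl9, named after its values were seen, changed by -0.21. The most negative values belonged to genes that did not pass. Rpl27a had 1722, 1466 and 1798 FPKM in KO and 1913, 2361 and 2650 FPKM in control libraries (-0.47, SE 0.14, limma adjusted p = 0.110). Rpl30 had 594, 445 and 601 FPKM in KO and 714, 768 and 730 FPKM in control libraries (-0.44, SE 0.12, limma adjusted p = 0.0977). In the authors' deposited table, which applied its own test, 14 members were marked lower and 2 higher in LIF, Rpl27a and Rpl30 among the lower ones and Rpl39l and Rpl10l the higher ones.

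The stalk proteins Rplp0, Rplp1 and Rplp2, which draw translation factors to the 60S subunit, changed by -0.11, -0.30 and -0.25 in LIF, and none of the 3 passed (limma adjusted p = 0.185, 0.0579 and 0.0693). Rpl5 and Rpl11, which carry 5S ribosomal RNA into the ribosome and can bind the p53 inhibitor Mdm2, changed by -0.07 and -0.12, and Rpl23 and Rpl26, which can also bind Mdm2, by -0.28 and -0.17. None of these 4 passed. Rpl41, which encodes one of the shortest known proteins, went against the group without passing, at 2863, 2555 and 2897 FPKM in KO and 2577, 2747 and 2676 FPKM in control libraries (log2 fold change 0.05, SE 0.06, limma adjusted p = 0.618).

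**Figure D2:**
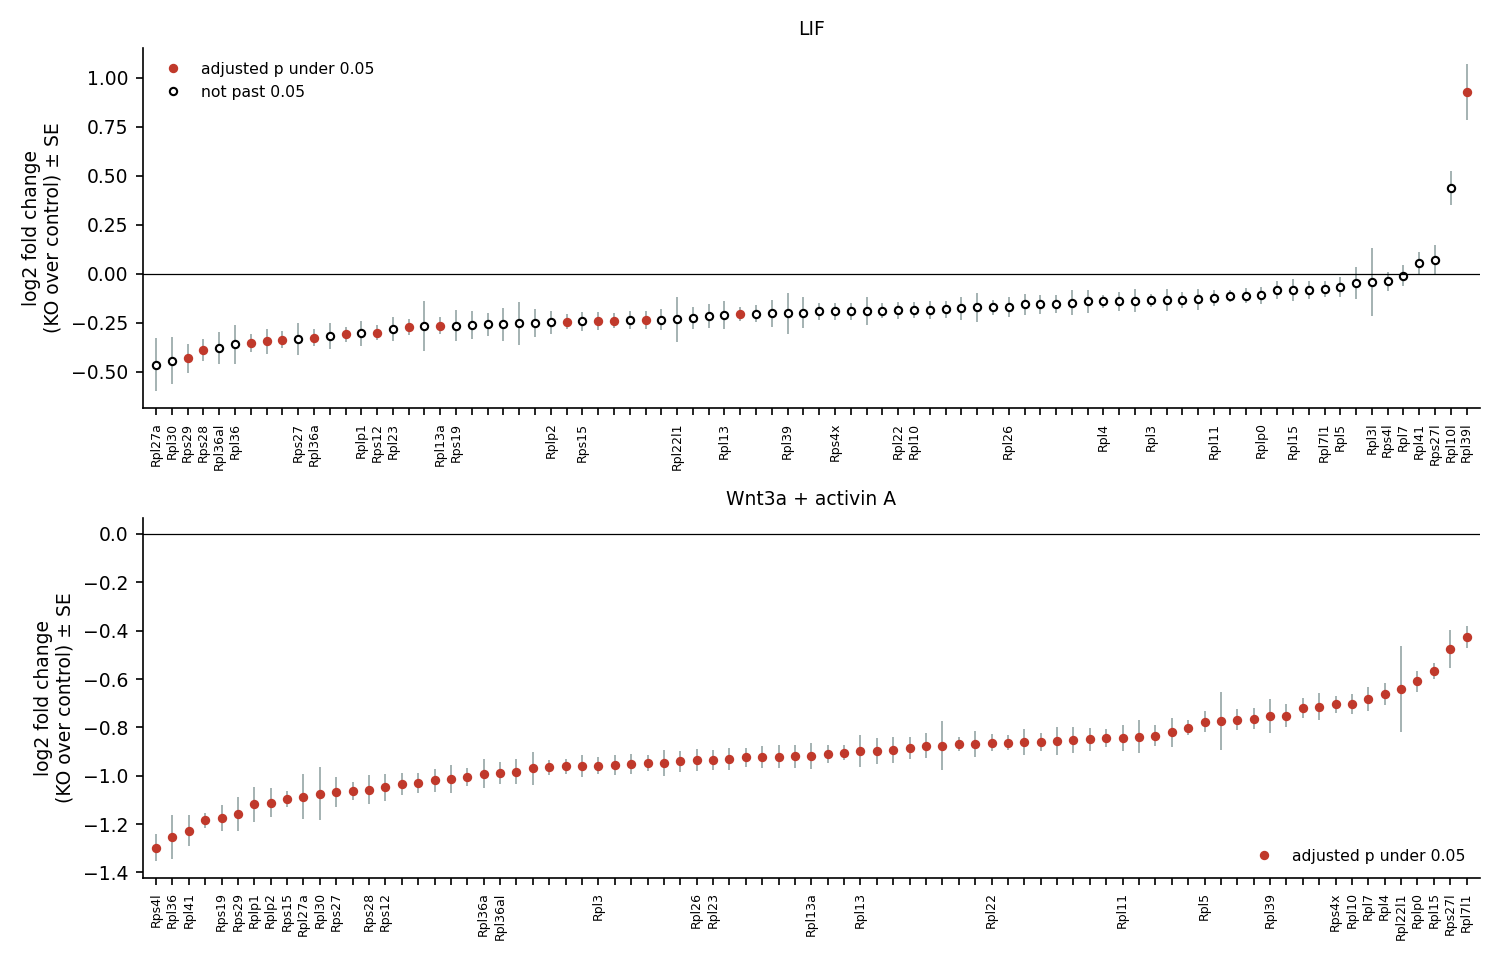
Log2 fold change (KO over control, of FPKM + 1) with its SE for every ribosomal protein gene tested, ordered by size and with names at some, in LIF (top, 84 genes) and under Wnt3a and activin A (bottom, 81 genes). Filled points passed an adjusted p of 0.05, namely 16 in LIF, with Rpl39l alone at the upper end, and all 81 under Wnt3a and activin A.

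Among the paralogs in LIF, 8 were tested: 1 rose and none fell, with a median of -0.04, beside 15 falls and no rise among the other 76 members tested. That the lists differ was not tested. Rpl39l, a paralog of the X-linked Rpl39 known from testis, had 46.6, 58.2 and 53.3 FPKM in KO libraries and 30.2, 22.1 and 29.8 FPKM in controls. This was the one significant rise among members (log2 fold change 0.93, SE 0.14, limma adjusted p = 0.0306), and with any 1 library left out its adjusted p was 0.0649 to 0.105 and its fold change 0.79 to 1.01. Rpl39l reached 34.0%, 42.4% and 40.1% of the level of Rpl39 in KO libraries, against 16.3%, 15.9% and 20.1% in controls. Rpl39 itself had 137, 137 and 133 FPKM in KO and 185, 140 and 148 FPKM in control libraries, a change of -0.20 that did not pass (limma adjusted p = 0.303). Rpl10l, an intronless copy of the X-linked Rpl10 that is needed for male meiosis in mice, had 23.8, 21.6 and 26.8 FPKM in KO and 17.7, 17.7 and 17.0 FPKM in control libraries. Its KO libraries lay above all controls, and its change of 0.44 (SE 0.09) missed the threshold (limma adjusted p = 0.0502). Relative to Rpl10 it stood at 2.78%, 2.59% and 3.31% in KO and 1.89%, 1.89% and 1.74% in control libraries.

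The windows of Rpl39l and its parent are shown over 120 bases before and 15 after the start, with matches to the 5 motifs above in capitals.
Rpl39l (chr16:10170108-10170242, plus strand): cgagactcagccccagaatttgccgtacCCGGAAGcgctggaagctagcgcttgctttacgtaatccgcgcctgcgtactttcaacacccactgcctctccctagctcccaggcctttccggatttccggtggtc
Rpl39 (chrX:37085208-37085342, minus strand): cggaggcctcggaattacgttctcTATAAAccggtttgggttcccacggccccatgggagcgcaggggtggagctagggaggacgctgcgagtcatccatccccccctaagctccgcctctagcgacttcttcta
Rpl39l holds a CCGGAAG and no TOP-like run. Rpl39 holds a TATAAA and a TOP-like run of 5 pyrimidines (CCTCT), and its full window also holds a CCGGAAG, outside the stretch shown. Of the 7 paralogs with a window, 2 held a TOP-like run, Rps27l and Rpl22l1.

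The other paralogs differed less from their parents in LIF than Rpl39l and Rpl10l did, but not all kept in step. Rps27l stood at 18.01% to 22.79% of Rps27 in KO and 13.55% to 17.34% in control libraries. Rps4l stood at 61.77% to 65.81% of Rps4x in KO and 52.27% to 61.52% in control libraries. Rpl7l1 went the other way, at 8.033% to 8.635% of Rpl7 against 8.652% to 9.026%. These ranges did not overlap, while those of Rpl3l, Rpl22l1 and Rpl36al did. That the ratios differ was not tested. Rps27l, a paralog of Rps27 known in human cells as a p53 target, had 550, 662 and 575 FPKM in KO and 573, 540 and 584 FPKM in control libraries (log2 fold change 0.07, limma adjusted p = 0.618), overlapping. Rps4l, a mouse paralog of the X-linked Rps4x, had 546, 520 and 535 FPKM in KO and 521, 550 and 576 FPKM in control libraries (-0.04, limma adjusted p = 0.668), also overlapping. Rpl7l1 changed by -0.08, Rpl22l1 by -0.23, Rpl36al by -0.38 and Rpl3l by -0.04, and none of them passed (limma adjusted p = 0.324, 0.278, 0.0588 and 0.908). The loci of Rpl7l1, Rpl36al and Rps4l hold 21, 7 and 5 other listed genes, and those of Rpl39l, Rpl10l and Rps27l none. Where paralog and parent share sequence, reads can be split between them, and how the authors' counting treated such reads is not stated in the labels.

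**Figure D3:**
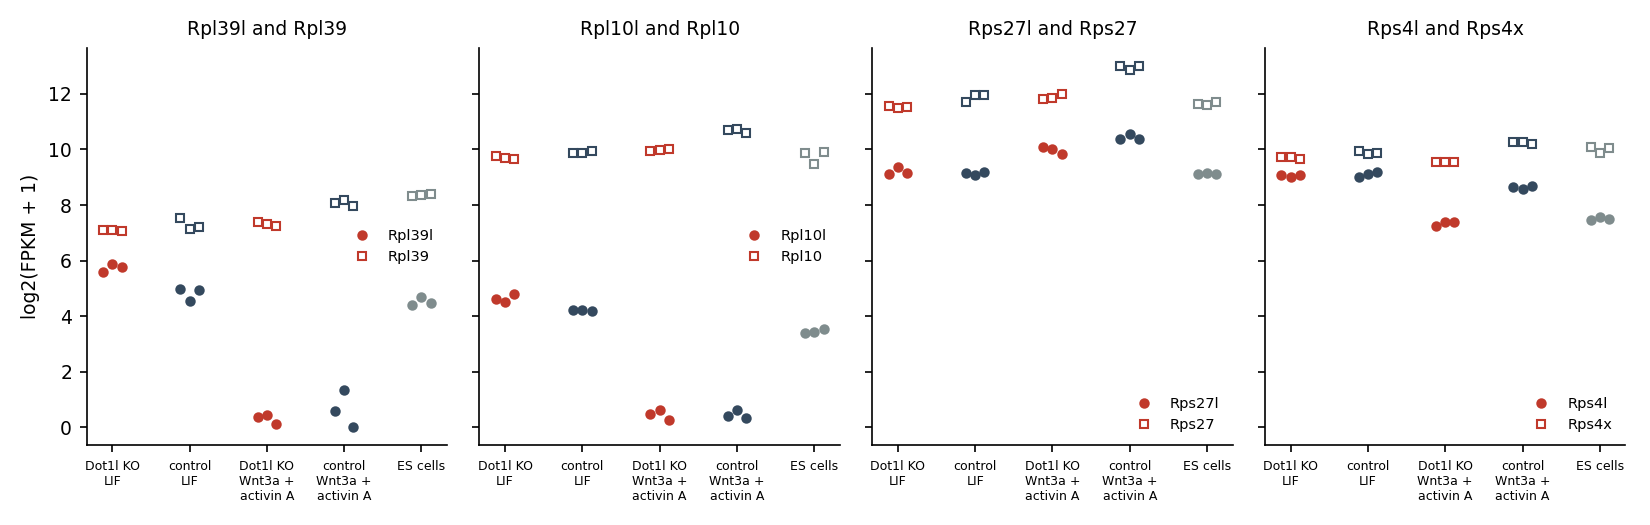
Level of 4 paralogs (filled circles) and their parents (open squares) in each of the 15 libraries, as log2(FPKM + 1), by group. In LIF, Rpl39l and Rpl10l lie higher in KO than in control libraries, and both are near 0 under Wnt3a and activin A, while Rps4l falls to 20.3% to 22.5% of Rps4x in KO libraries there.

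Under Wnt3a and activin A every tested ribosomal protein gene was lower in Dot1l KO cells. All 81 of 81 (100.0%) fell at an adjusted p under 0.05 by limma, against 29.5% of all 12770 genes tested (19.6% rose). In all 81 each KO library lay below each control, against 34.8% of all genes, and in 0 above, against 25.3%. The median log2 fold change was -0.92, against -0.08 over all genes, and the median difference in mean FPKM was -47.1%, ranging from -59.4% to -25.8%. Leaving out any 1 library left 80 or 81 members past the threshold, with Rpl22l1 the one that could be lost. How large the fall is depends on the scaling. With libraries set to equal sums without Mir6236 and mitochondrial genes, which moved the median of all genes to 0.37, 74 members fell, none rose and the median was -0.39, 0.76 below that of all genes. With quantile normalization 51 fell, 3 rose and the median was -0.19, against -0.04 over all genes. It gives every library the same set of values and so fixes the highest values, where the members lie. With the trend in gene span and level removed 44 fell, 2 rose and the median was -0.17, against -0.02 over all genes. That trend was fitted with the members included, so it can take out part of their own change. At an unadjusted p under 0.05 by limma, 81 members were lower as deposited and 75 with equal sums, with none higher. With quantile normalization 53 were lower and 4 higher, and with the trend removed 51 and 4. Of all genes, 7190, 7949, 6746 and 6360 were under it in these 4 settings, in either direction. Less RNA of these genes per cell and fewer cells that express them highly cannot be told apart in bulk RNA.

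**Figure D4:**
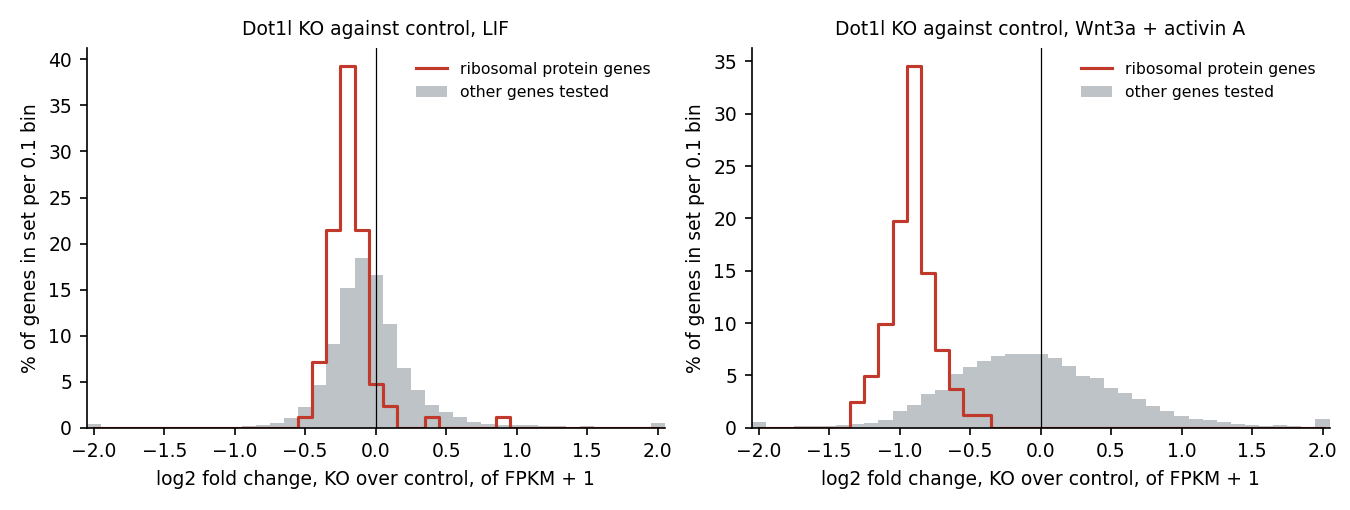
Distribution of log2 fold changes (KO over control, of FPKM + 1; values beyond 2 are placed in the outermost bins) as the percent of genes per bin, for ribosomal protein genes (line) and all other genes tested (bars), in LIF (left) and under Wnt3a and activin A (right). The member medians are -0.20 and -0.92, and under Wnt3a and activin A all members lie between -1.30 and -0.43.

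Both subunits had similar medians under Wnt3a and activin A, -0.93 over 32 small subunit and -0.91 over 46 large subunit genes. Among the strongest falls in the small subunit were those of Rps4l, Rps19 and Rps29. Rps19, mutated in Diamond-Blackfan anaemia in humans, had 1449, 1600 and 1630 FPKM in KO and 3574, 3371 and 3615 FPKM in control libraries (-1.18, SE 0.06, limma adjusted p = 6.9e-05). Rps29 had 2334, 2471 and 2780 FPKM in KO and 5777, 5344 and 5769 FPKM in control libraries (-1.16, SE 0.07, limma adjusted p = 0.000117). In both the highest KO library was far below the lowest control. Rps12, Rps15, Rps27 and Rps28 fell by 1.05, 1.10, 1.07 and 1.06 on the log2 scale.

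In the large subunit Rpl36 and Rpl41 led. Rpl36 had 1917, 1946 and 2401 FPKM in KO and 5152, 4760 and 4959 FPKM in control libraries (log2 fold change -1.25, SE 0.09, limma adjusted p = 0.000196). Rpl41 had 3254, 3353 and 3704 FPKM in KO and 8515, 7644 and 7977 FPKM in control libraries (-1.23, SE 0.06, limma adjusted p = 7.84e-05). The same gene had overlapping groups in LIF. Rpl13a had 9965, 10876 and 11172 FPKM in KO and 20367, 20894 and 19214 FPKM in control libraries (-0.92, SE 0.05, limma adjusted p = 0.000102). The stalk was uneven: Rplp1 and Rplp2 fell by 1.12 and 1.11 on the log2 scale, and Rplp0, their anchor on the 60S subunit, by 0.61. Rplp0 had 1701, 1830 and 1836 FPKM in KO and 2734, 2651 and 2802 FPKM in control libraries, and with quantile normalization it was 0.12 higher in the KO instead. The 4 genes whose products can bind Mdm2 also fell, Rpl5 by 0.78, Rpl11 by 0.84, Rpl23 by 0.93 and Rpl26 by 0.94.

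The weakest falls were those of Rpl7l1, Rps27l, Rpl15, Rplp0, Rpl22l1 and Rpl4. Rpl7l1 had 94.4, 96.6 and 97.4 FPKM in KO and 133, 132 and 124 FPKM in control libraries (log2 fold change -0.43, SE 0.05, limma adjusted p = 0.000694). Rps27l had 1077, 1028 and 903 FPKM in KO and 1343, 1495 and 1343 FPKM in control libraries (-0.48, SE 0.08, limma adjusted p = 0.00363). With equal sums both were on the other side of 0 (0.10 and 0.05), so they were lower in the KO as deposited but not relative to the summed total. Rps27l stood at 29.9%, 27.9% and 22.0% of Rps27 in KO libraries, against 16.3%, 19.9% and 16.5% in controls, without overlap. Rpl15 changed by -0.57, Rpl4, whose protein lines the exit tunnel, by -0.66 and Rpl22l1 by -0.64. Rpl22l1, whose parent Rpl22 represses it in mice, was the noisiest, at 116, 110 and 153 FPKM in KO and 204, 232 and 159 FPKM in control libraries (SE 0.18, limma adjusted p = 0.0258), and in the authors' deposited table it was 1 of the 2 tested members not marked as significant, with Rpl7l1 the other.

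Rps4l fell most of all members. It had 150, 167 and 168 FPKM in KO and 398, 386 and 412 FPKM in control libraries (log2 fold change -1.30, SE 0.06, limma adjusted p = 6.32e-05), a difference of -59.4%. Its parent Rps4x had 739, 742 and 748 FPKM in KO and 1232, 1239 and 1163 FPKM in control libraries (-0.70, SE 0.04, limma adjusted p = 7.77e-05). Rps4l thus stood at 20.3%, 22.5% and 22.5% of Rps4x in KO libraries, against 32.3%, 31.1% and 35.4% in controls, and at 61.8% to 65.8% in KO and 52.3% to 61.5% in control libraries in LIF. In ES cells it stood at 16.4% to 20.3%. Rpl39l and Rpl10l were near 0 in this condition in both genotypes, at 0.305, 0.371 and 0.0940 FPKM in KO against 0.505, 1.53 and 0 FPKM in controls for Rpl39l, and at 0.384, 0.546 and 0.207 against 0.318, 0.552 and 0.251 FPKM for Rpl10l. The groups overlapped, and both genes were below the filter for testing.

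The effect of the KO differed between the conditions in nearly all members. An interaction term (KO effect under Wnt3a and activin A minus KO effect in LIF, limma over 12 libraries) passed the threshold in the negative direction in 80 of 81 members (98.8%), against 20.7% of all 11783 genes tested in both tables, and in the positive direction in 0, against 17.6% (38.3% in either direction). The median was -0.69, against -0.02 over all genes. Rpl22l1 was the exception (-0.41, SE 0.23, limma adjusted p = 0.184). Among the largest differences were those of Rpl41 (-1.28, SE 0.09, limma adjusted p = 8.37e-06), Rps4l (-1.26, SE 0.08, limma adjusted p = 4.2e-06) and Rps19 (-0.91, SE 0.10, limma adjusted p = 9.12e-05). With equal sums, which moved the median of all genes to 0.37, 46 members passed and with quantile normalization 13, all in the same direction. At an unadjusted p under 0.05 by limma, 80 members were lower as deposited, 58 with equal sums and 24 with quantile normalization. In the last of these settings 1 was higher. Of all genes, 5555, 6393 and 5037 were under it in either direction. The 2 comparisons share no libraries. Across the 81 members their log2 fold changes had a Pearson correlation of 0.478 and a Spearman correlation of 0.549, as a description over genes, which are not independent. All 81 members fell under Wnt3a and activin A, so the overlap was set by the LIF result alone. It held 79 members lower in both comparisons, with the 15 that fell in LIF among them.

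**Figure D5:**
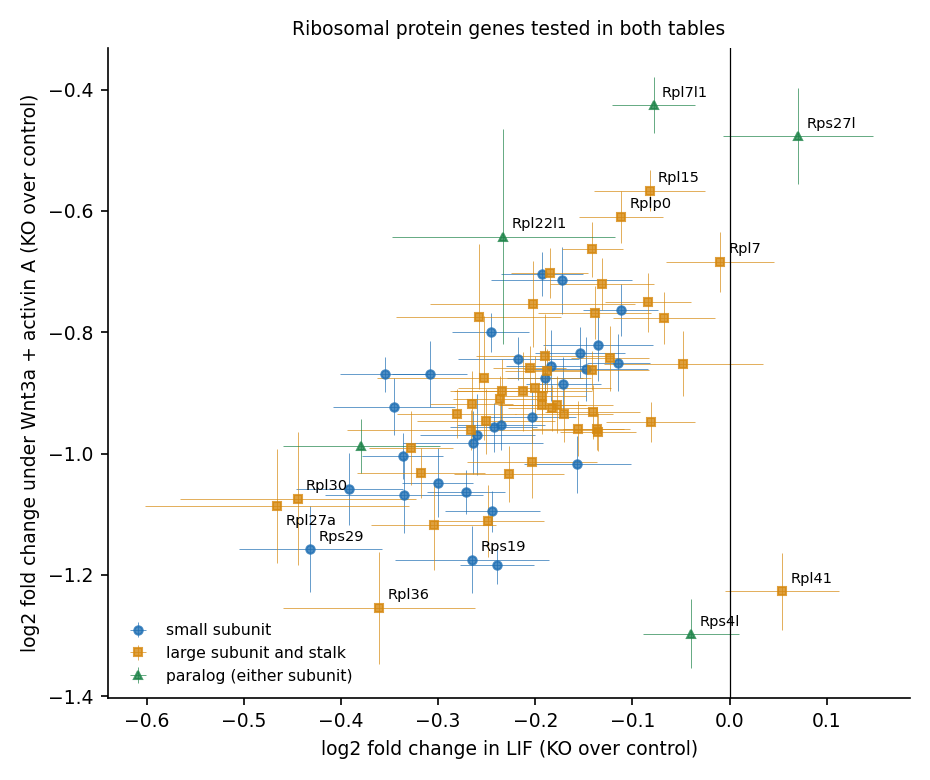
Log2 fold change (KO over control) in LIF (x) and under Wnt3a and activin A (y) of the 81 ribosomal protein genes tested in both, with SE bars. Rpl41 and Rps4l lie at the bottom right with LIF values of 0.05 and -0.04, while Rpl27a and Rpl30 lie furthest left at -0.47 and -0.44.

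Between the control groups the members did not keep the same proportions, given here as each one's share of the member sum, without a test because the tables were scaled separately. The share in controls under Wnt3a and activin A was 1.63 times that in LIF controls for Rpl41, 1.54 times for Rps19, 1.52 times for Rps12 and 1.34 times for Rps27l. At the low end it was 0.012 times for Rpl10l, 0.013 times for Rpl39l, 0.054 times for Rpl3l, 0.39 times for Rps4l and 0.55 times for Rpl7l1. The 5 lowest are thus all paralogs. Rpl41 and Rps19, the members with the highest ratios, were also among those with the largest interaction, a comparison in which the same control libraries enter.

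Genes of the ribosome outside the naming rule also fell under Wnt3a and activin A. These and the lists that follow were tested on the values as deposited only, and equal sums would move the median of all genes in that condition to 0.37. Fau, whose product is released as the 40S protein S30, averaged 714 ± 57.0 FPKM in KO and 1655 ± 40.0 FPKM in control libraries under Wnt3a and activin A (SD, n = 3 each), a log2 fold change of -1.22 by limma. Rack1 of the 40S head fell by 0.87 and Rps3a1 by 0.84 on the log2 scale. In LIF Fau changed by -0.31, Rack1 by -0.16 and Rps3a1 by -0.24, and none of the 3 passed. Pseudogene rows of ribosomal proteins, 291 in each table, summed to 0.254% to 0.280% of the member sum in KO and 0.237% to 0.269% in control libraries under Wnt3a and activin A.

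Other genes with TOP mRNAs, mostly translation factors, also fell under Wnt3a and activin A. Of 22 listed, which include Fau, 19 fell and 2 rose, with a median of -0.45, beside 29.5% of all genes tested that fell, 19.6% that rose and a median of -0.08. The elongation factor subunits Eef1b2 and Eef1d fell by 0.94 and 0.89, and the initiation factor subunit Eif3k by 0.87. Eef1a1, the elongation factor that brings tRNA, averaged 8676 FPKM in KO and 11250 FPKM in control libraries and fell by 0.37. Pabpc1, the poly(A) binding protein, rose by 0.33, and it rose in LIF as well, by 0.40. In LIF 3 of the 22 fell, Gas5 and Eef1a1 among them, beside 3.45% of all genes, and the median was -0.09, beside -0.07. All 7 snoRNA host genes, whose introns carry guides for rRNA modification, fell under Wnt3a and activin A (median -0.59), Snhg8 by 0.85 and Gas5 by 0.83, and 2 of 7 fell in LIF, beside the same shares of all genes.

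In LIF 1 of 56 ribosome assembly, nucleolar and chaperone genes tested fell (Rrs1, -0.26), near the 3.45% of all genes. The counts that follow, for Wnt3a and activin A, stand beside a median of -0.08 over all genes, of which 29.5% fell and 19.6% rose. In that condition 14 of 20 large subunit assembly factors fell and 1 rose (median -0.34), among them Eif6, which keeps the 60S subunit from joining the 40S (-0.91), and the nucleolar GTPase Gnl2 (-0.83). Of 17 small subunit assembly factors 8 fell and 2 rose (median -0.15), Utp20 by 0.63 and Emg1 by 0.55. Of 10 nucleolar and snoRNP genes 8 fell and 1 rose (median -0.48), nucleolin (Ncl) by 0.92 and Nhp2 by 0.91, while the pseudouridine synthase Dkc1 rose by 0.26. Of 9 chaperones and importins of ribosomal proteins 4 fell and 2 rose (median -0.37), not far from the shares of all genes, with falls of 0.75 for Pdcd2 and 0.62 for Tsr2, the carrier of Rps26. Of 13 genes of mTOR signalling, Larp1 and transcription factors linked to ribosomal protein promoters, 7 rose and 2 fell (median 0.24). Larp4, which binds poly(A) tails, rose by 1.69, Gabpa, an ETS family factor, by 0.88 and Eif4ebp2 by 0.78, while Eif4ebp1 fell by 1.00 and Larp1 by 0.16 on the log2 scale. In LIF 1 of these 13 passed, Myc (-0.47), beside 4.41% of all genes in either direction.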

How the data were processed

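The deposited expression tables hold the authors' FPKM for each gene in each library. Those of the KO also hold a p-value and a q-value of the authors' own test. Cufflinks 2.2.1, Cuffdiff and STAR 2.5.4a were among the tools, and mm9 and GRCm38 the builds, that the submitters' processing notes name, with no role given. The deposited peak lists give the authors' score per peak. Only 4.24% to 11.2% of the GRCm38 starts of 7021 genes with at least 5 FPKM in controls lay in a peak of a list, so the lists were taken to be on another build and the planned look at H3K79me2 and Thio-ChIP peaks at members was not run.

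For each KO table, genes averaging 1 FPKM or more were tested two-sided by limma 3.58.1 under R 4.3.3, using log2(FPKM + 1) and a mean-variance trend, with Benjamini-Hochberg adjustment over all genes tested and a threshold of 0.05. This scale understates changes of low genes. The interaction was fitted over 12 libraries for genes tested in both tables. The fit was tested on simulated data. FPKM carries no counts, so no interval from depth can be given. Members and lists were chosen with earlier results of these data known. Named with values, by a rule, were the 6 highest and 6 lowest fold changes per comparison, the 4 largest interactions, the stalk, the paralogs and their parents, genes whose products bind Mdm2 or 5S RNA, the 5 highest and 5 lowest levels in ES cells, and up to 4 genes per other list. A few genes are not reported here. Groups came from the sample labels. No 2 libraries held identical values. Start windows came from RefSeq (GRCm38.p6), and figures were drawn with matplotlib 3.10.9.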

Additional observations from a re-analysis of the deposited data

Results flagged for a closer look

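The effect of the Dot1l KO on ribosomal protein genes differed between the culture conditions by a test of the difference itself. The limma interaction (KO effect under Wnt3a and activin A minus KO effect in LIF) passed the threshold in 80 of 81 members, all with a more negative value under Wnt3a and activin A. Over all genes tested in both, 20.7% passed in that direction and 17.6% in the other. With equal sums 46 members passed and with quantile normalization 13. Among the members, Rpl41 (-1.28), Rps4l (-1.26) and Rps19 (-0.91) had some of the largest differences on the log2 scale as deposited. Rpl41 and Rps4l had KO and control libraries that overlapped in LIF and did not overlap under Wnt3a and activin A.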

How the results depend on the processing

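Under Wnt3a and activin A all 81 tested members fell, and the count was 81 with median-of-ratios rescaling (median -0.86), a pseudocount of 0.1, a minimum of 5 FPKM or no variance trend, and 80 of 86 without a filter. It was 51 lower and 3 higher with quantile normalization (median -0.19), 44 lower and 2 higher, 46 in all, after removing the trend in gene span and level (median -0.17), and 74 with equal sums, a rescaling chosen after seeing the data (median -0.39). Leaving out 1 library gave 80 to 81 calls and medians of -0.94 to -0.89. The interaction count was 13 with quantile normalization, 46 with equal sums and 79 to 80 with 1 library left out. In LIF the 15 lower and 1 higher calls, 16 in all, became 9 lower (10 in all; median -0.14) with median-of-ratios rescaling, and 4 lower and 2 higher (6 in all; median -0.060) with quantile normalization. They became 18 lower and 2 higher with a pseudocount of 0.1, 25 lower and 2 higher (27 in all) with a minimum of 5 FPKM, and 2 lower (3 in all; median -0.12) with equal sums. After removing the trend in gene span and level there were 0 lower and 1 higher (1 in all, median -0.087). At an unadjusted p under 0.05 there were then 22 lower and 4 higher, beside 2570 of all 13153 genes in either direction. There were 0 calls without a filter and 0 without a variance trend. At an unadjusted p under 0.05 these had 53 and 47 lower and 2 higher each, beside 4167 and 3148 of all genes. Leaving out 1 library gave 0 to 1 lower, 0 higher and medians of -0.21 to -0.17. It left 51 to 61 lower and 2 higher at an unadjusted p under 0.05, beside 2515 to 3080 of all genes. Adjusted counts over all genes are not given for these settings, so the member counts show only how far they depend on the processing. The trend in gene span and level was fitted with the members included. Removing the trend was not run for the interaction. The causes were not tested, beyond the fewer samples or genes in some of these fits.

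Replicate numbers do not pair the libraries: deviations of libraries with the same number had correlations of -0.00271 to 0.0426 in LIF and -0.0119 to 0.0621 under Wnt3a and activin A. With the replicate number as a block, 0 members passed in LIF, 80 under Wnt3a and activin A and 79 for the interaction. In LIF 56 were then lower and 2 higher at an unadjusted p under 0.05, beside 2733 of all genes in either direction.

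Some named members changed sign. In LIF these were Rpl7 and Rps4l with median-of-ratios rescaling (0.0437 and 0.0138), and with quantile normalization Rpl15 (0.0308), Rpl3 (0.0464), Rpl4 (0.00699), Rpl7 (0.157), Rpl7l1 (0.0269), Rplp0 (0.0802) and Rps4l (0.0434). After removing the trend they were Rpl15 (0.0109), Rpl5 (0.0253), Rpl7 (0.114), Rpl7l1 (0.0381), Rplp0 (0.00427) and Rps4l (0.0679), and with equal sums Rpl3l (0.00578), Rpl5 (0.00647), Rpl7 (0.0647) and Rps4l (0.0347). With 1 library left out, Rpl3l lay between -0.144 and 0.0818, Rps27l between -0.00734 and 0.126 and Rpl7 between -0.0487 and 0.0347. None of these passed the threshold in LIF as deposited. Under Wnt3a and activin A the sign changed with quantile normalization for Rpl4 (0.102), Rpl7 (0.0502), Rplp0 (0.122) and Rps27l (0.125), after removing the trend for Rpl10 (0.0868), Rpl4 (0.117), Rpl7 (0.114), Rplp0 (0.178), Rps27l (0.284) and Rps4x (0.0229), and with equal sums for Rpl7l1 (0.100) and Rps27l (0.0535). The interaction changed sign with quantile normalization for Rpl10 (0.00405), Rpl4 (0.0900), Rplp0 (0.0408), Rplp1 (0.162), Rps12 (0.0862) and Rps27 (0.178), and with equal sums for Rpl22l1 (0.0435) and Rpl7l1 (0.105).

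The mean share of summed FPKM was 13.7%, 16.5%, 17.8%, 24.0% and 18.8% in KO and control libraries in LIF, KO and control libraries under Wnt3a and activin A, and ES cells. Without Mir6236 and mitochondrial genes it was 16.1% in KO and 17.8% in control libraries in LIF, 25.0% in controls under Wnt3a and activin A and 20.0% in ES cells. Without Rpl13a it was 15.1% in LIF controls, 16.4% in KO and 22.2% in control libraries under Wnt3a and activin A and 17.5% in ES cells. With 1 library left out it was 12.9% to 14.8% in KO and 16.2% to 16.9% in control libraries in LIF, 17.2% to 18.2% in KO and 23.6% to 24.5% in control libraries under Wnt3a and activin A, and 18.4% to 19.2% in ES cells.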

Other observations

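Among the 3 ES cell libraries, replicate 2 stood apart in some members. Rpl13a was at 6611 FPKM there, against 9109 and 10414 FPKM in replicates 1 and 3, and Rpl22l1 at 201 against 297 and 313 FPKM. Across members its Pearson correlations with the other ES cell libraries were 0.996 and 0.995, against 0.9997 between the other pair.

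Paralogs stood at other proportions of their parents in ES cells than in LIF controls, as a description, since the tables were scaled separately and the genotypes differ. Rpl7l1 was at 2.04% to 2.28% of Rpl7 in ES cells and at 8.65% to 9.03% in LIF controls. Rpl36al was at 11.7% to 12.9% of Rpl36a in ES cells and at 23.9% to 24.8% in LIF controls. Rpl39l was at 6.21% to 7.51% of Rpl39 in ES cells and at 15.9% to 20.1% in LIF controls.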
